A study of Mus musculus with 25 samples.

Results

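The 9 genes described here make or package GABA or mark classes of inhibitory interneuron: Gad1, Gad2, Slc32a1, Pvalb, Lhx6, Dlx1, Erbb4, Reln and Nos1. They were chosen by name, and all 9 were among the 23990 genes of the deposited expression table. The study sequenced prefrontal cortex RNA from 25 samples in 6 groups of C57BL/6 mice of both sexes, with and without social defeat stress and dihydrocaffeic acid/malvidin-glucoside. Only 1 group could be tied to columns of the table by name. It is labelled M-stress/vehicle and holds 5 libraries from wild-type males aged 10 weeks that received vehicle before and during repeated defeat by an aggressor. The other 5 groups were not analysed here, so the values carry no contrast of stress, compound or sex. They describe how much of each message these stressed males had and how far 5 libraries of 1 group lay apart.

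GABA is the main inhibitory transmitter of the cortex. The enzymes encoded by Gad1 (GAD67) and Gad2 (GAD65) make it from glutamate, and the transporter encoded by Slc32a1 (VGAT) loads it into synaptic vesicles. Interneurons born in the ventral forebrain pass through a stage that needs Dlx factors, and those from the medial ganglionic eminence go on to express Lhx6 and become cells that contain parvalbumin or somatostatin. Other interneurons contain the secreted protein reelin or the neuronal nitric oxide synthase, and Erbb4 is the neuregulin receptor that cortical interneurons carry.

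Columns of the table are named by letter and number. Just 1 letter has a column numbered 5, and just 1 group has 5 titles, so that letter was taken for this group and the number for the replicate; all values below rest on this. Whether each library came from its own mouse is not stated in the labels, and part of the spread may be technical. Depth was 34565147 to 44265039 gene-assigned reads per library. A level is given in CPM, the read number scaled to the effective library size, as mean ± SD over the libraries (n = 5). A level in CPM per kilobase of exon was used to compare genes with each other. The Y-linked genes Ddx3y, Eif2s3y and Kdm5d were expressed in all 5 libraries, with means of 49.9, 41.7 and 25.1 CPM. Cortical excitatory neurons were represented by Camk2a at 3402 ± 424 CPM, Slc17a7 at 1926 ± 94.3 CPM and Tbr1, a transcription factor of deep cortical layers, at 232 ± 21.1 CPM. In bulk tissue a lower level from fewer cells of a type cannot be told apart from a lower level per cell.

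The synthesis genes Gad1 and Gad2 drew the most reads of the 9, and Gad1 varied more between libraries than Gad2 or Slc32a1. Gad1 stood at 253, 256, 293, 316 and 242 CPM in replicates 1 to 5 (272 ± 31.3 CPM). It was high in replicates 3 and 4 and lay within 241.7 to 256 CPM in the other 3. Gad2 stood at 150.2, 164, 172, 165 and 173 CPM (165 ± 9.14 CPM). Its 4 higher libraries lay close together and replicate 1 was below them. Slc32a1 stood at 74.3, 84.4, 81.4, 82.4 and 75.9 CPM (79.7 ± 4.36 CPM), lower in replicates 1 and 5 than in the other 3. The coefficient of variation was 11.5% for Gad1, 5.54% for Gad2 and 5.47% for Slc32a1.

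**Figure D1:**
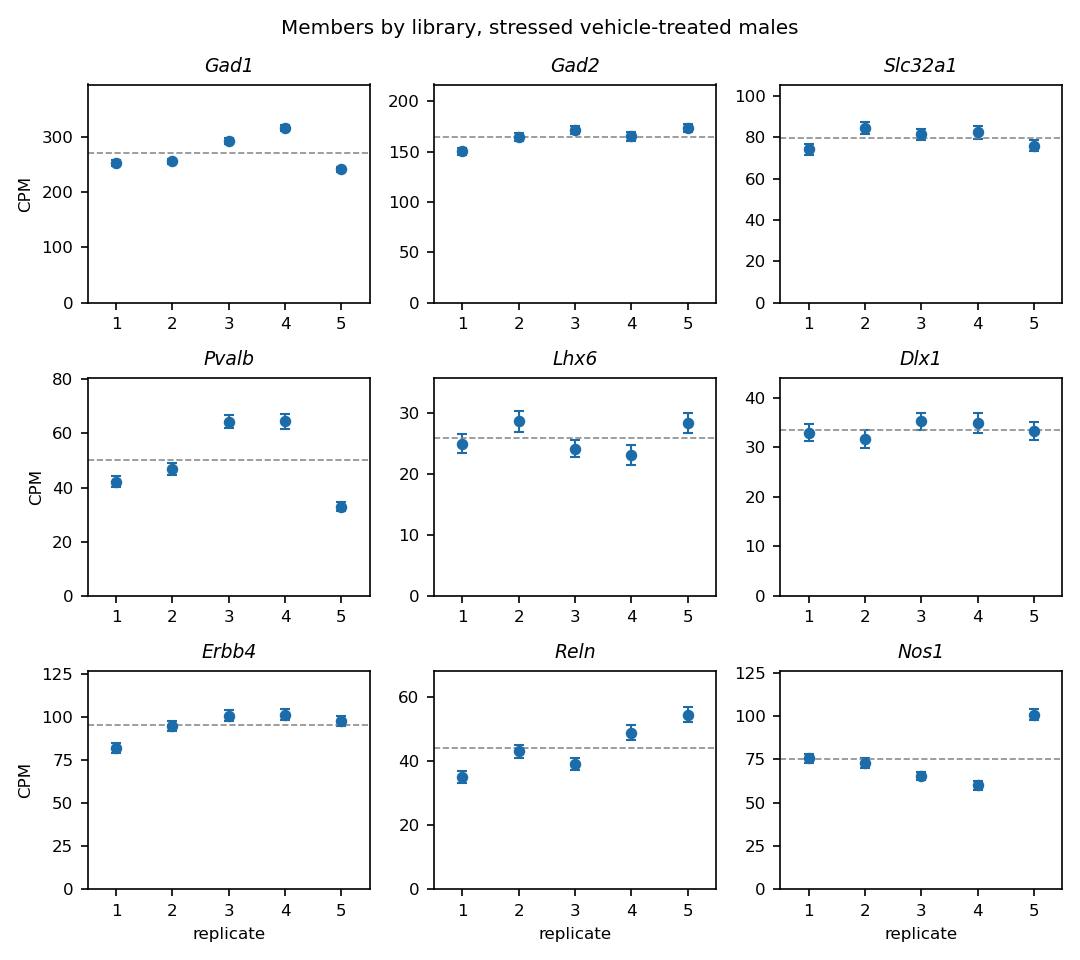
Level of each of the 9 genes in CPM (vertical axis, from 0) in replicates 1 to 5 of the M-stress/vehicle group (horizontal axis). Points are libraries, bars are 95% Poisson intervals that cover counting error only, and dashed lines are means; Pvalb lies between 33.0 and 64.5 CPM and Dlx1 between 31.6 and 35.2 CPM.

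Gad1 (ENSMUSG00000070880) lies on chromosome 2 at 70553072 to 70602014 on the plus strand of GRCm38. On the same chromosome and strand, Gad2 (ENSMUSG00000026787) lies at 22622205 to 22693874 and Slc32a1 (ENSMUSG00000037771) at 158610767 to 158615748. The sequences upstream of the RefSeq start sites of Gad1 and Gad2 are shown because these enzymes share a reaction and differed in spread. They come from the RefSeq table for GRCm38.p6, are written 5′ to 3′ on the plus strand, and stop where GENCODE exons begin, 87 bases before the Gad1 start and 122 bases before the Gad2 start. The Gad1 stretch is chr2:70561879-70562041 and the Gad2 stretch chr2:22622077-22622204. The Gad1 start used, at 70562129, lies inside the gene, which GENCODE begins at 70553072 on the same strand. The Gad1 stretch is thus not the sequence before the annotated 5′ end of Gad1, and promoter use there was not tested. Capitals mark a match to the letters of a TATA box (TATAAA, here on the other strand) 141 bases before the Gad1 start, and one to a CCAAT box (CCAAT) 226 bases before the Gad2 start.
Gad1: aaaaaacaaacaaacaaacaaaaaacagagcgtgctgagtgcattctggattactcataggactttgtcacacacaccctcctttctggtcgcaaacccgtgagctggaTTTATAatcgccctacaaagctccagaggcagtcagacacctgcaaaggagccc
Gad2: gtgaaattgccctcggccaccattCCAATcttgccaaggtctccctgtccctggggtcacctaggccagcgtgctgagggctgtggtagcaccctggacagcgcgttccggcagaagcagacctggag
On either strand, TATAAA occurred in 12.4% and CCAAT in 33.8% of the 32851 RefSeq windows of 250 bases before a start. The 250-base window was 58% G and C in Gad1 and 64% in Gad2, against a median of 52.4% over all windows.

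Within each library the log2 ratio of Gad1 to Gad2 reads was 0.75, 0.64, 0.77, 0.94 and 0.48 in replicates 1 to 5, with a mean of 0.72 and an SD of 0.17. Gad1 thus had more reads than Gad2 in 5 of 5 libraries, by 1.40 to 1.92 times. A ratio within a library does not depend on how libraries are scaled. The log2 ratio of Gad2 to Slc32a1 was tighter, with a mean of 1.05 and an SD of 0.090. Leaving out replicate 5 reduced that SD to 0.049. Of the 36 pairs among the 9 genes, Gad2 with Erbb4 had the smallest SD with all libraries, 0.065, and Gad1 with Gad2 stood 12th. The smallest was that of Dlx1 with Erbb4 (0.029) without replicate 1, of Slc32a1 with Dlx1 (0.027) without replicate 2, and of Gad2 with Slc32a1 without replicate 5.

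Per kilobase of exon, Pvalb and the GABA synthesis and loading genes stood above the other 5. Pvalb was at 48.2 ± 13.4 CPM per kb, Gad1 at 35.6 ± 4.10, Slc32a1 at 28.5 ± 1.56 and Gad2 at 28.1 ± 1.55 CPM per kb. Next came Erbb4 at 7.73 ± 0.645, Nos1 at 6.72 ± 1.41, Dlx1 at 6.22 ± 0.279 and Lhx6 at 5.38 ± 0.525 CPM per kb, and Reln was lowest at 1.85 ± 0.325 CPM per kb. The ranges over libraries did not overlap between Gad1 and Slc32a1, between Gad2 and Erbb4, or between Lhx6 and Reln. They overlapped for every other pair of neighbours in this order. Pvalb was above Gad1 in 5 of 5 libraries although the ranges overlapped, and Dlx1 was above Lhx6 in 4 of 5. Slc32a1 was above Gad2, Erbb4 above Nos1 and Nos1 above Dlx1 in 3 of 5 libraries each, so these neighbours did not differ beyond their spread.

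**Figure D2:**
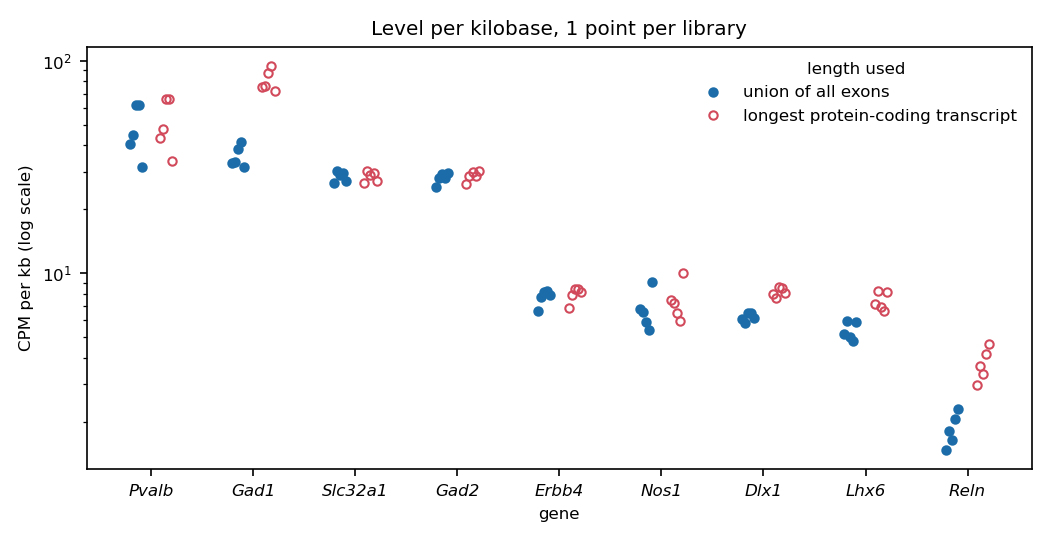
Level in CPM per kilobase (log scale) of each gene (horizontal axis) with 1 point per library; filled points use all exons of the gene and open points its longest protein-coding transcript. Gad1 is at 35.6 CPM per kb with all exons and at 81.1 with the longest transcript, while Gad2 is at 28.1 and 28.7.

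The order depends on the length used for Gad1. Its exons cover 7639 bases in all, while its longest protein-coding transcript has 3355 bases. With the transcript length Gad1 was at 81.1 ± 9.32 CPM per kb and stood first, above Pvalb at 51.3 CPM per kb. Reln was at 3.76 ± 0.659 CPM per kb by that length and was still the lowest of the 9. Dlx1 was then at 8.16 CPM per kb, Erbb4 at 7.94, Lhx6 at 7.42 and Nos1 at 7.40 CPM per kb.

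A chi-square test asked, for each gene, whether reads were proportional to effective library size, with Benjamini-Hochberg adjustment over all genes that averaged 5 reads or more. By this test 9 of 9 genes varied between libraries beyond counting error at an adjusted p under 0.05. The same held for 74.4% of the 19239 genes tested and for 87.6% of the 9884 genes of at least 10 CPM, the class all 9 belong to, so passing it does not set these genes apart. The same shares stand beside every count of list genes past this test below. The adjusted p was 3.07e-131 for Pvalb, 9.11e-115 for Gad1 and 1.69e-108 for Nos1. It was 0.0415 for Dlx1, which lost the call when libraries were scaled to summed reads (adjusted p = 0.143) or by median of ratios (0.0749), and when replicate 2, 3 or 4 was left out (0.215, 0.137 and 0.0521). The SD of log2 expression over libraries had a median of 0.14 in the 9 genes, against 0.11 in genes of at least 10 CPM.

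**Figure D3:**
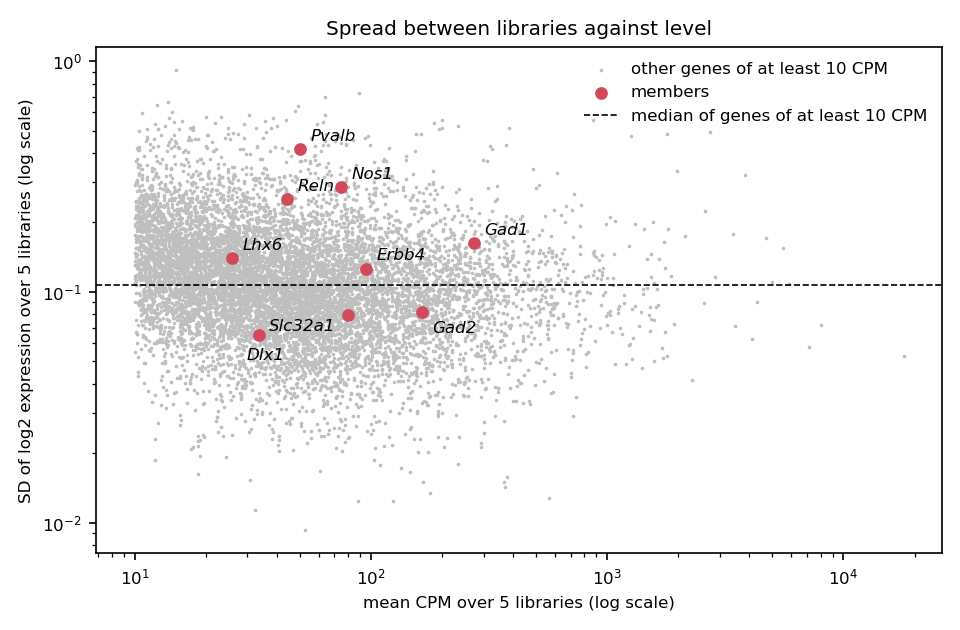
SD of log2 expression over 5 libraries (vertical axis, log scale) against mean CPM (horizontal axis, log scale), with the 9 genes in red and the other genes of at least 10 CPM in grey; the dashed line is the median of genes of at least 10 CPM, 0.11. Pvalb (0.42), Nos1 (0.28) and Reln (0.25) lie high in the cloud, and Dlx1 (0.065), Slc32a1 (0.080) and Gad2 (0.082) lie below the line.

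Pvalb, the calcium-binding protein of fast-spiking basket and chandelier cells, had the widest spread of the 9 genes. It stood at 42.1, 46.7, 64.4, 64.5 and 33.0 CPM in replicates 1 to 5 (50.1 ± 14.0 CPM). The level was alike in replicates 3 and 4, and replicate 5 was the lowest, 1.96-fold below the highest. Its SD of log2 expression, 0.42, exceeded that of 98.8% of genes of at least 10 CPM. Leaving out 1 library at a time gave SDs of 0.32 (without replicate 5) to 0.48. Pvalb (ENSMUSG00000005716) lies on chromosome 15 at 78191114 to 78206400 on the minus strand.

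The 16 listed genes of fast-spiking interneurons code for fast potassium and sodium channel subunits, a calcium sensor of fast release, mitochondrial proteins and components of the perineuronal net, among others. Of the 16, 15 passed the chi-square test, near the 87.6% of genes of at least 10 CPM; Kcns3 did not (adjusted p = 0.0619). Kcna2, a potassium channel of axons, stood at 228, 239, 278, 336 and 239 CPM in replicates 1 to 5. It was highest in replicate 4, and replicate 3 came next. Syt2, the calcium sensor at terminals of parvalbumin cells, varied most, with 37.6, 39.2, 60.7, 75.9 and 25.97 CPM, a 2.92-fold range. Like Pvalb it was high in replicates 3 and 4 and lowest in replicate 5.

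Of the 16 genes, 13 were highest in replicate 4, 2 in replicate 3 and 1 in replicate 5, while 8 were lowest in replicate 5, 6 in replicate 1 and 2 in replicate 2. Over all genes of at least 1 CPM, 26.8% were highest in replicate 4. The mean log2 deviation of the 16 genes was -0.16, -0.09, 0.14, 0.35 and -0.23 in replicates 1 to 5, a 1.49-fold range between replicates 4 and 5. Its SD was 0.24 with all libraries and 0.16 without replicate 4. The log2 ratio to Pvalb had an SD of 0.15 for Kcna1, the smallest of the 16, of 0.17 for Scn1a and of 0.42 for Kcnc2, the largest. These 3 channel genes were picked after their values were seen. The libraries are the same for every gene, so the genes are not independent of each other.

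**Figure D4:**
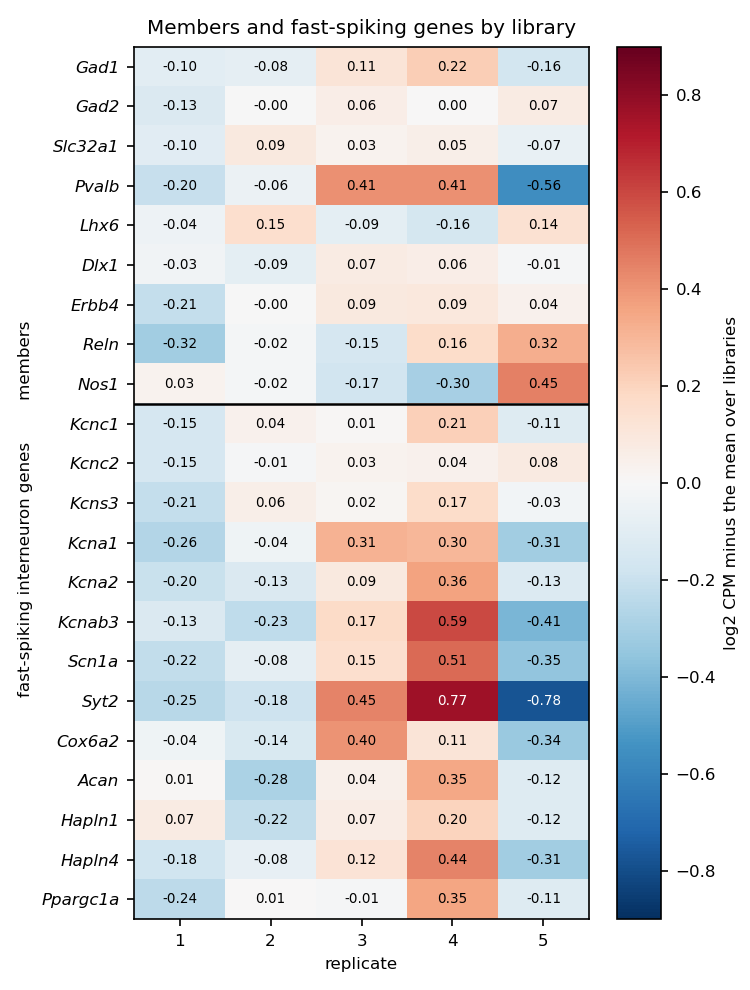
Log2 CPM of each gene minus its mean over libraries (colour and printed value) for the 9 genes (above the line) and 13 of the 16 fast-spiking interneuron genes (below it) in replicates 1 to 5. Most fast-spiking genes and Pvalb are above 0 in replicates 3 and 4 and below 0 in replicates 1 and 5, whereas Nos1 is at 0.45 in replicate 5 and -0.30 in replicate 4.

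Markers of other cells also differed between these libraries. The 17 striatal projection neuron genes, of which 15 passed the chi-square test, summed to 737, 730, 841, 819 and 726 CPM in replicates 1 to 5. The sums were highest in replicates 3 and 4, where Pvalb was high. Much of that rise in the sums came from 1 gene, Scn4b. This sodium channel subunit gene stood at 62.6, 62.7, 126, 147 and 45.3 CPM. Of the 14 listed genes of at least 1 CPM, 6 were highest in replicate 3 and 5 in replicate 4, while 2 and 3 were lowest there. The mean log2 deviation of these 14 genes was -0.05, -0.16, 0.15, 0.13 and -0.07 in replicates 1 to 5. The most abundant of the 17 were Adcy5, Ppp1r1b and Gng7, with Adcy5 at a mean of 226 CPM. None of the 17 was at 0 in any library. Drd2, the dopamine receptor of indirect-pathway neurons, averaged 1.80 CPM, while the striatal factor Isl1 averaged 0.14 CPM. The 11 mature oligodendrocyte genes, all of which passed the test, summed to 7728, 6650, 9460, 4332 and 4442 CPM. Mbp, the myelin gene that leads them, was at 2724 ± 917 CPM. Their maximum was in replicate 3 and their minimum in replicate 4, the libraries in which Pvalb was alike. The part of either cell type in the spread of Pvalb was not tested.

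The sequence before the upstream one of both RefSeq starts of Pvalb is shown with those of Nos1 and Reln, since these 3 genes had the largest spreads. Each is the 200 bases before the start site in the RefSeq table for GRCm38.p6, written 5′ to 3′ in the direction of transcription: Pvalb at chr15:78206401-78206600 on the minus strand, Nos1 at chr5:117866639-117866838 on the plus strand, and Reln at chr5:22344706-22344905 on the minus strand. The Nos1 start used lies inside the gene, at 117866839, while GENCODE begins the gene at 117781032 on the same strand. Its stretch is thus not the sequence before the annotated 5′ end of Nos1, and promoter use there was not tested. Capitals mark GC boxes (GGGCGG) and an E-box (CACGTG), found in Reln.
Pvalb: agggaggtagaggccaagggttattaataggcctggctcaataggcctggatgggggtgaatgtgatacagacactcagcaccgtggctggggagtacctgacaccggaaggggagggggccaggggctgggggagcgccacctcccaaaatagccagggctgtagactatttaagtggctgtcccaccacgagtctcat
Nos1: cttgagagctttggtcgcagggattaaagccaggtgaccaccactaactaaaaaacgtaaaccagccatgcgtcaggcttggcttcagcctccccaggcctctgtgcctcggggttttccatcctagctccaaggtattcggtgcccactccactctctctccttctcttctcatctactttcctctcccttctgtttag
Reln: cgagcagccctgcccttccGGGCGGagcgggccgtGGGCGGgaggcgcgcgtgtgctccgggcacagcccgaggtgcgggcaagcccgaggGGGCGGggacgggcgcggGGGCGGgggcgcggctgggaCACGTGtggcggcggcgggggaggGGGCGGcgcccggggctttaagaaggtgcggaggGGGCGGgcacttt
Reln held 6 GC boxes and 1 E-box, and its window of 250 bases was 80% G and C, above 98.8% of all windows, with 37 CG dinucleotides against a median of 6. GGGCGG occurred in 32.7% and CACGTG in 6.02% of all windows, counted on both strands. The window of the Pvalb start shown was 58.4% G and C with 4 CG dinucleotides, while that of its other RefSeq start, at 78204237, was 71.6% with 23. Both of these and the window of Nos1 (54%, 6 CG dinucleotides) held none of the 6 motifs searched. These were the 4 named above, the cAMP response element TGACGTCA (in 1.55% of all windows) and the homeodomain core TAATTA (4.84%), neither of which is in the windows of Gad1, Gad2 or Reln. Gad1 also has a GC box 8 bases before the RefSeq start used, outside the part shown. No motifs overlapped each other in these windows.

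Nos1, which makes nitric oxide in a sparse set of cortical neurons, was highest in the library where Pvalb was lowest. It stood at 75.5, 72.9, 65.5, 60.0 and 101 CPM in replicates 1 to 5 (74.96 ± 15.7 CPM). Replicate 5 was above the other 4, and replicate 4, where Pvalb was high, was lowest, a 1.68-fold range. The SD of log2 expression, 0.28, exceeded that of 96.2% of genes of at least 10 CPM, but it was 0.15 without replicate 5. Pvalb with Nos1 had the largest SD of a log2 ratio among the 36 pairs, 0.69, from -1.61 in replicate 5 to 0.10 in replicate 4. Without replicate 5 that SD was 0.46. Nos1 (ENSMUSG00000029361) lies on chromosome 5 at 117781032 to 117958840 on the plus strand.

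Nitric oxide acts on soluble guanylate cyclase, whose product cGMP drives kinases and is removed by phosphodiesterases. Of 15 listed genes of this pathway, 14 were in the table and 13 passed the chi-square test, and the mean log2 deviation of those of at least 1 CPM had an SD of 0.073, against 0.072 for the 9 genes themselves. Dlg4 (PSD-95), the scaffold that holds the synthase at synapses, was at 1048 ± 49.1 CPM, and Dynll1, a dynein light chain that binds it, at 254 ± 19.3 CPM. The phosphodiesterase gene Pde1a was at 235 ± 21.3 CPM. The cGMP-dependent kinase gene Prkg2 varied most, with 7.196, 6.07, 4.37, 10.6 and 7.39 CPM, highest in replicate 4, where Nos1 was lowest. Tacr1, the substance P receptor known from strongly Nos1-positive cortical neurons, stood at 3.08, 2.72, 3.18, 2.03 and 3.77 CPM, highest in replicate 5 and lowest in replicate 4 as Nos1 was. It was picked after its values were seen.

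Reln encodes the secreted glycoprotein reelin, made in the adult cortex by interneurons. It stood at 34.9, 43.0, 39.1, 48.7 and 54.4 CPM in replicates 1 to 5 (44.01 ± 7.71 CPM). Replicate 5 was the highest and replicate 1 the lowest, a 1.56-fold range, and the SD of log2 expression, 0.25, exceeded that of 94.3% of genes of at least 10 CPM. Reln and Nos1 were both highest in replicate 5, but their log2 ratio had an SD of 0.30, and of 0.17 without replicate 4. Reln (ENSMUSG00000042453) lies on chromosome 5 at 21884454 to 22344702 on the minus strand.

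Reelin binds the receptors encoded by Vldlr and Lrp8, which act through the adaptor encoded by Dab1. All 12 listed genes of this pathway passed the chi-square test, as did 87.6% of genes of at least 10 CPM. Their mean log2 deviation had an SD of 0.036, and of 0.016 with libraries scaled to summed reads. Pafah1b1 (LIS1), a dynein regulator, was at 617 ± 50.8 CPM, the adaptor gene Crk at 136 ± 7.15 CPM and the exchange factor gene Rapgef1 at 136 ± 8.80 CPM. Vldlr varied most, with 59.9, 53.8, 65.1, 74.0 and 65.7 CPM in replicates 1 to 5. Its highest library was replicate 4 and its lowest replicate 2, unlike Reln.

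Erbb4 encodes a receptor tyrosine kinase for neuregulins. It stood at 82.1, 95.03, 101, 102 and 97.8 CPM in replicates 1 to 5 (95.5 ± 7.97 CPM). Replicate 1 was lower than the other 4, which lay within 95.03 to 102 CPM, and without it the SD of log2 expression was 0.045 in place of 0.13. With libraries scaled to summed reads, replicate 3 and not replicate 4 was the highest. Erbb4 (ENSMUSG00000062209) lies on chromosome 1 at 68032186 to 69108059 on the minus strand.

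Of 13 listed neuregulin and ErbB genes, 12 were in the table and 9 passed the chi-square test. The ligand gene Nrg3 was at 45.6 ± 4.69 CPM, and the proteases encoded by Adam10 and Bace1, which cut membrane-bound ligands, at 100.4 ± 7.33 and 116 ± 4.28 CPM. Nrg1 and Nrg2, the best known Erbb4 ligands, averaged 4.54 and 7.75 CPM and did not pass the test (adjusted p = 0.142 and 0.0501); both were picked after their values were seen. Erbb3, the receptor carried by oligodendrocytes, varied most, with 18.0, 16.6, 22.7, 10.4 and 16.1 CPM. Its maximum in replicate 3 and minimum in replicate 4 were those of the mature oligodendrocyte genes.

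Lhx6 and Dlx1 encode homeodomain factors of the interneuron lineage. Lhx6 stood at 24.96, 28.7, 24.2, 23.1 and 28.4 CPM in replicates 1 to 5 (25.8 ± 2.52 CPM), higher in replicates 2 and 5 than in the other 3. Dlx1 stood at 32.9, 31.6, 35.2, 34.9 and 33.3 CPM (33.6 ± 1.505 CPM). Its coefficient of variation, 4.48%, was the smallest of the 9, and 3.54% remained after counting error was taken off. Lhx6 is a factor that parvalbumin cells need for their development, and somatostatin cells come from the same Lhx6 lineage. The log2 ratio of Pvalb to Lhx6 ranged from 0.22 in replicate 5 to 1.48 in replicate 4, with an SD of 0.53. On chromosome 2, Lhx6 (ENSMUSG00000026890) lies at 36081953 to 36105408 on the minus strand and Dlx1 (ENSMUSG00000041911) at 71528113 to 71533981 on the plus strand.

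All 15 other listed interneuron transcription factors were in the table. Of the 14 tested, 12 passed the chi-square test. Zeb2 and Satb1 were the most abundant, with 160.1 ± 9.98 and 156 ± 4.70 CPM, of which Zeb2 is also a glial factor. Sp8, a factor of interneurons from the caudal ganglionic eminence, varied most, with 2.53, 1.86, 3.14, 1.86 and 1.28 CPM. Nkx2-1, which cortical parvalbumin and somatostatin cells turn off as they leave the medial ganglionic eminence, averaged 0.07 CPM. The mean log2 deviation of the list had an SD of 0.075, and 0.039 without replicate 3.

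Some exons of the 9 genes are shared with other annotated genes. Where the genes lie on opposite strands, reads from such stretches cannot be told apart, because no source used here states the strandedness of the counting. Lhx6 and Gm27953 lie on the same strand, so strandedness would not separate their reads. An antisense gene, Gm14205, covers 697 bases of Slc32a1 exons, which is 24.9% of them. Dlx1as, the antisense transcript of Dlx1, covers 6.21% of Dlx1 exon bases and was itself at 2.74 to 3.80 CPM. Overlaps of Lhx6 with Gm27953 (104 bases), Reln with Gm10475 (246 bases) and Nos1 with Gm26995 (268 bases) were small beside 4805, 23738 and 11151 exon bases of these genes. Gm10475 and Gm26995 were at 0.135 CPM and 0.145 CPM or less in every library. Gm14205 and Gm27953 were not among the genes of the expression table, so their levels are not known here.

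GABA is taken up by transporters and broken down in neurons and astrocytes, and is remade through glutamine. Of 18 listed genes for these steps, 15 passed the chi-square test. Glul (glutamine synthetase, an astrocyte enzyme) was the most abundant, at 1800 ± 66.2 CPM. The GABA transporter gene Slc6a13, known from meninges and vessels, varied most, with 3.90, 2.98, 2.11, 6.58 and 6.00 CPM. The list's mean log2 deviation had an SD of 0.060, below that of the fast-spiking genes (0.24).

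Single markers listed for other interneuron classes differed in profile over the same libraries. Of 21 subclass markers, 18 passed the chi-square test. Sst, the peptide of the other main class from the medial ganglionic eminence, stood at 332, 357, 316, 249 and 369 CPM, lowest in replicate 4 and highest in replicate 5, as Nos1 was. Cck, a peptide also made by excitatory neurons, stood at 319, 371, 346, 414 and 379 CPM, and the cannabinoid receptor gene Cnr1 at 173, 186, 167, 184 and 201 CPM. Lamp5, a marker of neurogliaform cells that excitatory neurons of superficial layers also express, stood at 52.9, 43.5, 56.3, 119 and 47.0 CPM. Its value in replicate 4 was 2.39 times the mean of the other 4 libraries.

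**Figure D5:**
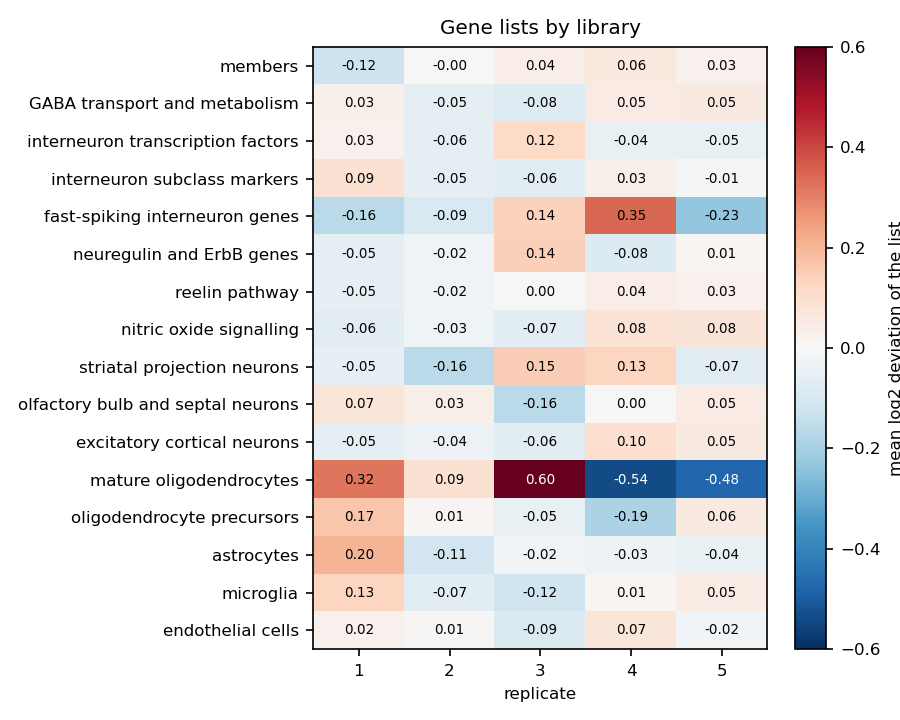
Mean log2 deviation from the mean over libraries (colour and printed value) of the 9 genes (top row, named members) and of each gene list, for genes of at least 1 CPM, in replicates 1 to 5. The 9 genes range from -0.12 to 0.06, the fast-spiking genes from -0.23 to 0.35 and the mature oligodendrocyte genes from -0.54 to 0.60.

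Taken over the 9 genes, the mean log2 deviation was -0.12, -0.003, 0.04, 0.06 and 0.03 in replicates 1 to 5, an SD of 0.072. Replicate 1 was the lowest library for 4 of the 9 and the highest for none, and without it the SD was 0.027. Replicates 4 and 5 were each the highest for 3 of the 9 and the lowest for 2. Of all genes of at least 1 CPM, 18.9% were highest in replicate 1, 26.8% in replicate 4 and 18.4% in replicate 5. No such share is given here for the lowest library. The 12 excitatory neuron genes, all past the chi-square test, had an SD of 0.072 as well, and summed to 5856, 6006, 5666, 6775 and 6414 CPM. Gene by gene these 12 varied more than their mean. Their SDs of log2 expression had a median of 0.19, and Cux2 had the largest, 0.64.

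For each of the 9, the 3 genes with the steadiest log2 ratio to it were taken from the 9884 genes of at least 10 CPM, so their SDs are small by construction. For Pvalb these were Asah2, Gcnt4 and Nefh, a neurofilament gene, with SDs of 0.12 each. Nefh stood at 57.1, 61.4, 72.3, 86.5 and 45.6 CPM. Gad1 was nearest to Rars, Ubash3b and Epb41l3 (0.021 to 0.025), and Gad2 to Neurod6, Atp6ap2 and Ankrd50 (0.0093 to 0.0097), of which Neurod6 is a factor of excitatory neurons. Slc32a1 was nearest to Uhrf1bp1, Lnx1 and Mrpl41 (0.0043 to 0.015), Dlx1 to Prkag1, Tjp1 and Npm1 (0.0069 to 0.013), and Erbb4 to Cask and Gsk3b (0.014 and 0.015). Ratios were looser for Lhx6 with Rpp21, Zfp771 and Mdn1 (0.029 to 0.032), for Reln with 3300002P13Rik, Cnih3 and Pcdhga12 (0.057 to 0.082), and for Nos1 with Cib2, Zcchc12 and Cdh13 (0.059 to 0.080).

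Each of the other cell lists had its own profile over the libraries. Oligodendrocyte precursor genes, led by Pdgfra (59.5 ± 3.21 CPM) and Gpr17 (54.7 ± 7.35 CPM), peaked in replicate 1 and had their minimum in replicate 4. Astrocyte genes were highest in replicate 1, with Gfap at 116 CPM there, against 51.2 to 80.0 CPM in the other libraries. Microglial genes, led by Csf1r (114 ± 9.88 CPM), and endothelial genes, led by Flt1 (93.3 ± 10.4 CPM), were lowest in replicate 3. Of the genes of olfactory bulb and septum, Trpc4, Zic1 and Zic2 averaged 13.3, 12.5 and 8.94 CPM. Replicate 1, in which Gad2, Erbb4 and Reln were lowest, and Slc32a1 too except when scaled to summed reads, also had the highest mean log2 deviation of 3 glial lists. The summed level of the astrocyte genes was nonetheless highest in replicate 4 (6139 CPM, against 6114 CPM in replicate 1). The part of glial RNA in those levels was not tested.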

How the data were processed

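Total RNA of prefrontal cortex was sequenced in 25 samples. STAR 2.6.1d, featureCounts of Subread 1.6.3, SAMtools 1.9, edgeR and the builds mm10 and GRCm38 are named in the submitters' processing notes. The authors deposited 1 table of log2 values for 23990 genes. Taking the lowest value of each column as 0 reads, reading the values as log2 CPM with 0.5 reads added and an effective library size gave whole reads for 100% of values (tolerance 1e-06 reads). That form was inferred from the values, not stated by the authors. Another 20 columns could not be tied to samples by name and were not used here.

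From the 5 columns used, reads and CPM were computed (scipy 1.17.1, pandas 2.3.3 and numpy 2.4.6 under Python 3.11.15; plots with matplotlib 3.10.9). Symbols, exon lengths and coordinates came from GENCODE M21, matched for 23846 identifiers. Variation beyond counting error was tested with a chi-square test (4 degrees of freedom, Benjamini-Hochberg adjustment), checked on simulated data. It and the intervals cover counting error only: 3 reads are 0.0673 to 0.0870 CPM. A list's mean log2 deviation uses its genes that averaged 1 CPM or more. No correlation was computed over 5 libraries; the SD of a log2 ratio was used instead.

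The 9 genes and all 7 pathway and 8 other-cell lists were chosen with earlier results of these data known. Besides the 9 genes, the text names the 3 most abundant and the most variable gene of each list, the 3 genes of at least 10 CPM with the steadiest ratio to each of the 9, and genes whose exons overlap them; exceptions are marked, and Kcns3, Nkx2-1, Drd2 and Isl1 were likewise picked after their values were seen. A few of the genes so named are not reported here. Alternatives were scaling, filters on low values, exon length, 2 reads added before the log, and leaving out each replicate.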

Additional observations from a re-analysis of the deposited data

Results flagged for a closer look

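In each of 84 genes and list scores, the library at either end was set against the rest by Dixon's ratio, the gap to the nearest library divided by the whole range, with a critical value of 0.71 for 5 libraries. None of the 9 genes passed it. The 3 that did are fewer than the 4.2 that chance gives at 5%. Lamp5 had a ratio of 0.744, with 119 CPM in replicate 4 against 43.5 to 56.3 CPM in the others. Rapgef1, of the reelin pathway, had a ratio of 0.859, with 120.0 CPM in replicate 3 against 138 to 141 CPM. Cspg4, an oligodendrocyte precursor gene, had a ratio of 0.719, with 19.8 CPM in replicate 4 against 23.9 to 25.8 CPM.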

How the results depend on the processing

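The number of the 9 genes past the chi-square test was 8 or 9 under every alternative and while leaving out each replicate, and Dlx1 was the gene lost. Genes called over the whole table numbered 12693 with a mean of at least 20 reads, 15862 with no filter, 14293 and 14303 under the other scalings, and 12646 to 13125 with a replicate left out. The median over the 9 genes within a library averaged 70.6 CPM over libraries (69.3 to 72.2 over the alternatives). The mean log2 ratio of Gad1 to Gad2 was 0.66 to 0.78 with a replicate left out. The median level of list genes was 42.2 CPM with a mean of at least 1 CPM, 69.5 CPM with at least 10 CPM and 35.8 CPM with no filter, which follows from the genes each keeps. Leaving out replicates for the spread was chosen after the results were seen. Among the 9 genes it moved the SD of Gad2, Erbb4 and Nos1 by over 1.5 times: 0.040 for Gad2 and 0.045 for Erbb4 without replicate 1, and 0.15 for Nos1 without replicate 5. The SD of the ratio of Gad1 to Pvalb was 0.18 and that of Pvalb to Reln 0.26 without replicate 5, against 0.27 and 0.54 with it. Length moved the per-kilobase level of Gad1, Lhx6, Dlx1 and Reln by more than 1 SD. No mean log2 ratio changed sign. Under summed reads the deviations from the mean closest to 0 did change sign, such as that of the 9 genes in replicate 2 (0.0043 in place of -0.0027), and the SD of the reelin pathway's mean log2 deviation was 0.016 in place of 0.036. No paired analysis was possible because columns were tied to 1 group alone. With 5 libraries of 1 group, whose separate origin the labels do not state, no contrast between groups can be made.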
